A study of Mus musculus with 16 samples.

Results

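S100a8, S100a9, Slpi, Retnlg and G0s2 were described in every cell type and library of a single-cell RNA-seq study of mouse neuroblastoma grafts, as 5 of the 19715 genes in the expression matrix. They were picked by symbol because they are abundant in the RNA of neutrophils. Their traces in macrophages were also known, from an earlier reading of the same data, to differ between genotypes. Their levels are therefore given as a description, with no test. The libraries came from CD200R-/- mice (KO) and wild type mice (WT), all male C57BL/6, aged 8 weeks and carrying NB9464D tumors, a mouse neuroblastoma line, which were collected on day 28 and digested with collagenase at 1 mg/mL. One label names the mutant CD200R-/- and the growth protocol names it CD200-/-, so which gene of the receptor and ligand pair was deleted rests on the sample characteristics. From each genotype, leukocytes sorted for CD45 (KO sorted, WT sorted) and unsorted tumor cells (KO tumor, WT tumor) were captured with 10x Genomics 3' chemistry. The labels list 4 samples in each of the 4 groups, but the cells carry the name of their group alone, so each group stands here as 1 library. There was no spread between replicates to measure, and genotype cannot be told apart from animal, graft or preparation.

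S100A8 and S100A9 are small calcium-binding proteins that pair to form calprotectin, which also binds zinc and manganese and makes up much of the soluble protein of a neutrophil; released into tissue, it acts as an alarmin through Toll-like receptor 4 and RAGE. SLPI, the secretory leukocyte protease inhibitor, blocks neutrophil elastase and cathepsin G through its WAP domains and is made by neutrophils, some macrophages and epithelia. Retnlg encodes a resistin-like protein of mouse that is found in mature neutrophils and bone marrow, and G0s2 encodes an inhibitor of adipose triglyceride lipase, the first enzyme of fat breakdown, which is used well beyond blood cells. In droplet libraries such abundant transcripts are also met at low level in other cells, through RNA free in the suspension or through a neutrophil caught in the same droplet.

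The genes lie on 4 chromosomes. The 250 bases before each RefSeq gene start on GRCm38.p6 are shown for both S100 genes, which had the most alike pattern over the cell types, and for Slpi and G0s2, which were also high in other types. S100a8 (chr3:90668821-90669070, plus strand) and S100a9 (chr3:90695722-90695971, minus strand) are neighbours on chromosome 3 in opposite orientation, Slpi is on chromosome 2 (chr2:164356508-164356757, minus strand) and G0s2 on chromosome 1 (chr1:193273189-193273438, minus strand). Capitals mark the C/EBP half-site GCAAT or its reverse complement ATTGC, and the PU.1 core GAGGAAG or its reverse complement CTTCCTC; the 2 motifs do not overlap in these windows.
S100a8: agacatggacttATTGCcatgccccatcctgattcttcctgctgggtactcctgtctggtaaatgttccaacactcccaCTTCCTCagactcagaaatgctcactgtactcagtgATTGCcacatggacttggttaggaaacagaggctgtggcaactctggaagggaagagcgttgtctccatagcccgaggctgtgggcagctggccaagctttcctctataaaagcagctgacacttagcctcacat
S100a9: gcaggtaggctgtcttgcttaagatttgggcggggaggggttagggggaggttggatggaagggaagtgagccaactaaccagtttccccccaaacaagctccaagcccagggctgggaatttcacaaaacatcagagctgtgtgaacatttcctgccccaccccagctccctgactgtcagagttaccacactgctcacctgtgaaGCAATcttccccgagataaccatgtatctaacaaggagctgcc
Slpi: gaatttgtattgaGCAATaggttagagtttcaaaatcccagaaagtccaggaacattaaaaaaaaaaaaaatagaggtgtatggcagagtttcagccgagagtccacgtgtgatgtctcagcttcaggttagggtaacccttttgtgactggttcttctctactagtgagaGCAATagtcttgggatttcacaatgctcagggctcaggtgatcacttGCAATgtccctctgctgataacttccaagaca
G0s2: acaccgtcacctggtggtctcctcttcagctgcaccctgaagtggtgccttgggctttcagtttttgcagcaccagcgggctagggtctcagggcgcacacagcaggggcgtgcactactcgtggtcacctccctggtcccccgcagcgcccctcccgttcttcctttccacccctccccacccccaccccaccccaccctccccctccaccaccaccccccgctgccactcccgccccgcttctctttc
The S100a8 window held 2 C/EBP half-sites and 1 PU.1 core. The S100a9 window held 1 half-site, the Slpi window 3, the Retnlg window (chr16:48872358-48872607, plus strand) 1 and the G0s2 window 0, and none of these 4 had the PU.1 core. Over the same 250 bases, 23.1% of 32851 RefSeq promoters held the half-site and 10.6% held the PU.1 core. Such matches are letters in a window and describe no binding.

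The libraries held 4305 cells (KO sorted), 5219 cells (WT sorted), 5897 cells (KO tumor) and 4955 cells (WT tumor), with medians of 3127, 4665, 16276 and 19850 UMIs (unique transcript counts) per cell in the same order. Levels are in CPM, which for 1 cell type in 1 library is the share of its UMIs that a gene took, times 1000000. UMIs count transcript ends, so levels were not divided by gene length. Each log2 ratio is KO over WT and relative to the median gene of the type with at least 20 UMIs, because that gene was itself higher in KO by CPM, by 0.50 on the log2 scale in sorted neutrophils and by 0.33 in sorted macrophages. Intervals are at 95% and cover counting error only.

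Cells the authors named neutrophils were 87 of 4305 (2.02%) in the KO sorted library and 432 of 5219 (8.28%) in the WT sorted library, and 21 of 5897 (0.356%) in the KO tumor library and 17 of 4955 (0.343%) in the WT tumor library. They carried 0.634% of all UMIs of the KO sorted library and 2.18% of those of the WT sorted library. The name held against its markers in part. Csf3r, the receptor of the granulocyte growth factor, had UMIs in 61 of 87 KO sorted and 304 of 432 WT sorted neutrophils, and Cxcr2, a chemokine receptor of mature neutrophils, in 56 of 87 and 244 of 432 in the same order. Of the granule genes of immature neutrophils, Camp had 0 UMIs in both sorted libraries, Ngp and Ltf had 0 UMIs in KO sorted neutrophils, and 1 cell held 764 of the 769 Ngp UMIs of the WT sorted ones.

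In each library S100a8 and S100a9 were the most abundant of the 5 genes in neutrophils. S100a8 stood at 14891 CPM in KO sorted and 31445 CPM in WT sorted neutrophils, and at 17966 CPM in KO tumor and 18603 CPM in WT tumor neutrophils. S100a9 stood at 15772 CPM in KO sorted, 42395 CPM in WT sorted, 22903 CPM in KO tumor and 24228 CPM in WT tumor neutrophils. Together the pair made up 3.07% of all UMIs of KO sorted and 7.38% of those of WT sorted neutrophils, so that the WT sorted library was the high one and the other 3 lay closer together. G0s2 came next, at 4805 CPM in KO sorted, 6630 CPM in WT sorted, 6533 CPM in KO tumor and 9384 CPM in WT tumor neutrophils. Slpi was at 1054 CPM in KO sorted, 2318 CPM in WT sorted, 817 CPM in KO tumor and 2634 CPM in WT tumor neutrophils, lower in KO in both preparations. Retnlg was at 1735 CPM in KO sorted, 1544 CPM in WT sorted, 3044 CPM in KO tumor and 1180 CPM in WT tumor neutrophils, and its order by CPM was the opposite of that of Slpi.

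**Figure D1:**
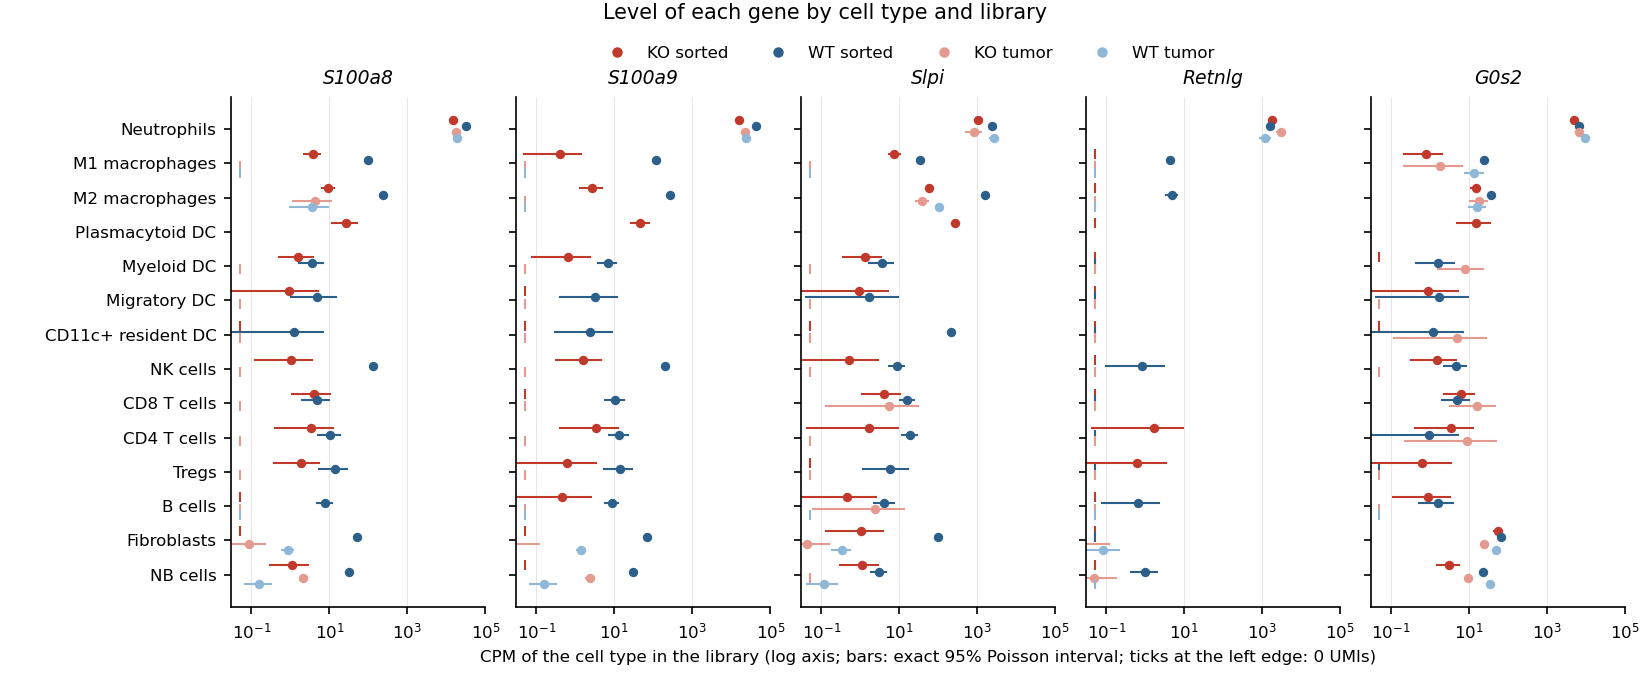
Level of each gene (CPM, log axis) in cell types with at least 20 cells, and in neutrophils of all 4 libraries; points are 1 library each, bars are exact 95% Poisson intervals and ticks at the left edge mark 0 UMIs. In the S100a8, S100a9, Retnlg and G0s2 panels neutrophils lie at the right, in the Slpi panel WT sorted M2 macrophages (1533 CPM) lie to the right of KO sorted neutrophils (1054 CPM), S100a8 in WT sorted M2 macrophages is at 233 CPM against 9.16 CPM in KO, and G0s2 is also present in fibroblasts and NB cells.

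Relative to the median gene, 3 of the 5 genes were at least 2-fold lower in KO sorted than in WT sorted neutrophils, where 19.0% of 4351 genes were that much lower and 17.9% that much higher. The log2 ratio was -1.58 for S100a8 (-1.64 to -1.53), -1.93 for S100a9 (-1.98 to -1.88) and -1.64 for Slpi (-1.86 to -1.43), and -0.97 for G0s2 (-1.07 to -0.87). Retnlg was the exception: its ratio was -0.34 relative to the median gene and 0.17 by CPM, so its direction depends on the scaling. In tumor neutrophils, with 21 KO and 17 WT cells, 2 of the 5 genes were at least 2-fold lower in KO, beside 24.3% of the 341 genes with enough UMIs lower and 19.4% higher. There the ratio was -2.23 for Slpi (-2.97 to -1.55) and -1.07 for G0s2 (-1.34 to -0.80), but -0.60 for S100a8 and -0.63 for S100a9, which by CPM differed by -0.05 and -0.08. These values rested on few cells. In WT tumor neutrophils 4 cells held 71 of the 96 Slpi UMIs, and KO tumor neutrophils had 22 Slpi UMIs in all. For G0s2, 4 cells held 67.0% of the UMIs in KO and 62.0% in WT tumor neutrophils. Fewer cells of a state and less RNA per cell cannot be told apart in such sums.

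The sums hid a wide range between cells. S100a8 had UMIs in 63 of 87 KO sorted neutrophils (72.4%) and 416 of 432 WT sorted ones (96.3%), with median values per cell of 6920 CPM in KO and 21895 CPM in WT. S100a9 had UMIs in 69.0% of KO and 93.3% of WT sorted neutrophils, Slpi in 55.2% and 74.8%, Retnlg in 44.8% and 51.9%, and G0s2 in 59.8% and 76.6%, KO before WT in each pair. Neutrophils were shallow, with medians of 1936 UMIs in KO and 2598 UMIs in WT. With each cell thinned to 2000 UMIs, which left out 45 KO and 106 WT cells, S100a8 was found in 57.1% of 42 KO and 97.5% of 326 WT neutrophils. Of the 42 KO cells, 16 had a UMI of a basophil or mast cell marker and none of the 16 had S100a8; without such cells the shares were 92.3% of 26 KO and 98.4% of 322 WT cells, an alternative added after the data were seen. B cells, which should lack these genes, had S100a8 in 0 of 943 KO sorted cells, which allows a share of up to 0.318%, and in 2.37% of 972 WT sorted cells, at median depths of 2168 UMIs in KO and 3118 UMIs in WT. A single WT sorted cell, the one with most Ngp, a granule gene of immature neutrophils, held 7.06% of the S100a8 UMIs; without it S100a8 was at 29598 CPM in WT sorted neutrophils.

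**Figure D2:**
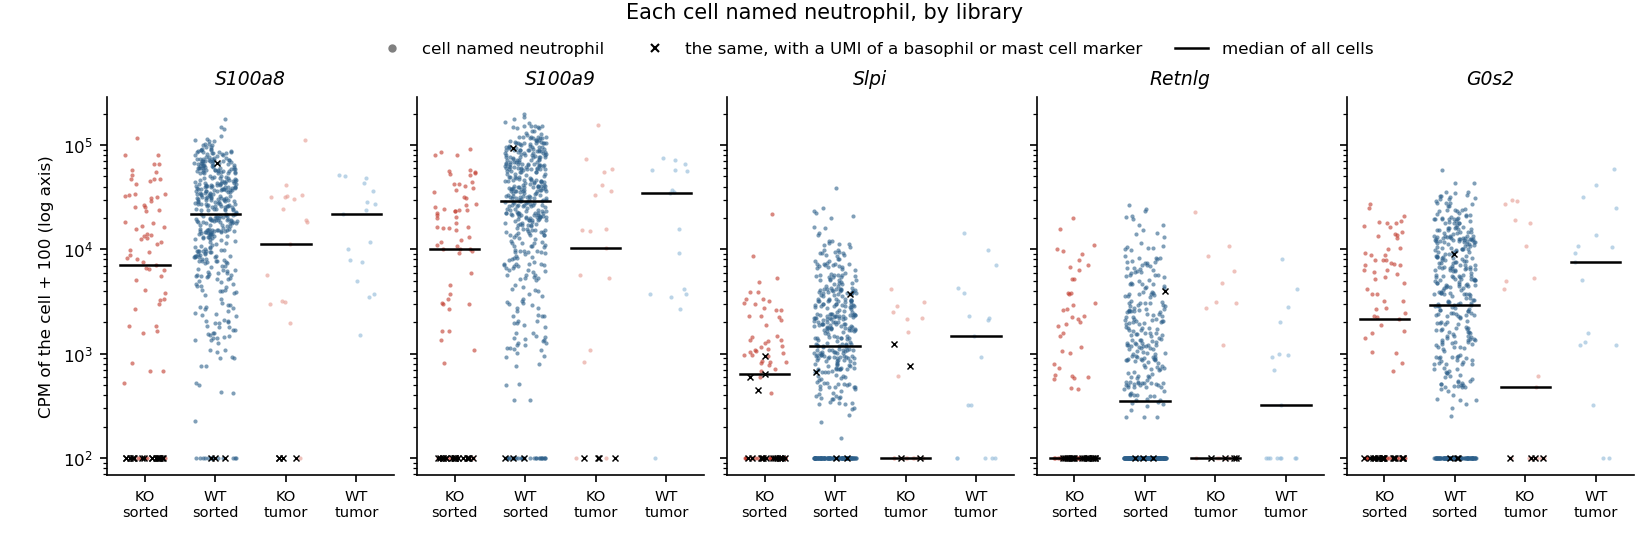
Each cell named neutrophil, with its own CPM plus 100 on a log axis, by library; crosses mark cells with a UMI of a basophil or mast cell marker and lines mark medians. In the S100a8 panel 63 of 87 KO sorted cells and 416 of 432 WT sorted cells lie above the bottom row of cells with 0 UMIs, where all crosses of the KO libraries lie for both S100 genes.

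Cells named neutrophils without any S100a8 or S100a9 UMI were 23 of 87 (26.4%) in the KO sorted library, 15 of 432 (3.47%) in the WT sorted library, 4 of 21 (19.0%) in the KO tumor library and 0 of 17 in the WT tumor library. In 17 of the 23 KO sorted cells, in 3 of the 15 WT sorted cells and in 4 of the 4 KO tumor cells there were UMIs of basophil or mast cell markers (Mcpt8, Cpa3, Ms4a2, Fcer1a, Mcpt4 and Cma1). Of the cells with S100 UMIs, 0 of 64 in the KO sorted, 1 of 417 in the WT sorted and 0 of 17 in the KO tumor library had one. In the KO sorted cells without S100 UMIs, Mcpt8, a basophil protease, had 13 UMIs in 6 cells and Cpa3, a carboxypeptidase of mast cells and basophils, 13 UMIs in 7 cells. Neutrophil genes were mixed in these 23 cells: Csf3r was found in 3, Il1r2 in 5, Hcar2 in 12 and Cxcr2 in 16. At least 3 neutrophil defining genes were found in 11 of the 23 cells. These cells held 46 of the 155 Cxcr2 UMIs of KO sorted neutrophils. Their median depth, 2743 UMIs, was not lower than the 1756 UMIs of the KO sorted cells with S100 UMIs. The summed level of the 6 markers was 341 CPM in KO sorted and 78.4 CPM in WT sorted neutrophils, and 520 CPM in KO tumor and 0 CPM in WT tumor neutrophils; Cma1 was at 0 UMIs in all 4. When every cell with such a UMI was left out, the log2 ratio in sorted neutrophils was -0.996 for S100a8, -1.34 for S100a9, -1.11 for Slpi and -0.39 for G0s2, and Retnlg turned to 0.25. Cells with at least 3 neutrophil defining genes gave -1.29 for S100a8 and -1.64 for S100a9. Both alternatives were chosen after the data were seen.

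Other neutrophil genes did not all follow S100a8. Of 31 genes that define neutrophils, 29 were in the matrix and 22 had at least 20 UMIs in sorted neutrophils; 8 of the 22 were at least 2-fold lower in KO and 1 was higher, with a median log2 ratio of -0.56, beside 19.0% of all genes lower and 17.9% higher. Lcn2, the iron-scavenging lipocalin of secondary granules, was at 222 CPM in KO and 833 CPM in WT (log2 ratio -2.41), Wfdc21, a small WAP-domain protein like SLPI, at 189 CPM in KO and 600.3 CPM in WT (-2.17), and Stfa2l1, a stefin that blocks cysteine proteases, at 562 CPM in KO and 1161 CPM in WT (-1.55). The stefins are near-identical copies, so their reads may be split between them. Hcar2, a receptor for nicotinic acid and ketone bodies, was at 1340 CPM in KO and 2169 CPM in WT (-1.20). Ngp, Ltf, Stfa1 and Ly6g, the last the surface antigen used to sort mouse neutrophils, had 0 UMIs in KO and 769, 191, 156 and 58 UMIs in WT, but 1 WT cell held 764 of the Ngp UMIs and 1 held 189 of the Ltf UMIs.

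Some neutrophil genes were not lower in KO. Csf3r was at 1373 CPM in KO and 699 CPM in WT (log2 ratio 0.47), Cxcr2 at 838 CPM in KO and 484 CPM in WT (0.29), and Il1r2, the decoy receptor of interleukin 1, at 2059 CPM in KO and 1187 CPM in WT (0.29). Mmp9, gelatinase B, was at 594 CPM in KO and 324 CPM in WT (0.37). Hdc, histidine decarboxylase, was the 1 gene of the list past 2-fold higher in KO, at 4265 CPM in KO and 1353 CPM in WT (1.15), and 312 of its 789 KO UMIs lay in cells with a basophil or mast cell marker; those cell types make histamine with the same enzyme. Of 16 genes shared by neutrophils and monocytes, 5 were at least 2-fold lower and 0 higher, with a median of -0.47. Over all genes 19.0% were lower and 17.9% higher. Il1b, the leading cytokine of the shared list, was nearly level at 11237 CPM in KO and 8292 CPM in WT (-0.07).

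Relatives and partners of the members were mixed in sorted neutrophils. In the S100 family, S100a11 was at 1589 CPM in KO and 2307 CPM in WT (log2 ratio -1.04), S100a6 at 2659 CPM in KO and 2385 CPM in WT (-0.35), and S100a10, a partner of annexin A2, at 211 CPM in KO and 58.6 CPM in WT (1.34). Wfdc17, another WAP-domain protein, was at 1411 CPM in KO and 5199 CPM in WT (-2.39). Of 12 receptors and partners, 7 had at least 20 UMIs, 3 were at least 2-fold lower and 2 higher, beside 19.0% of all genes lower and 17.9% higher. Tlr4, a receptor of calprotectin, was at 70.3 CPM in KO and 120 CPM in WT (-1.28), and Bsg, basigin, which binds S100A9, at 270.2 CPM in KO and 519 CPM in WT (-1.45). Emb, embigin, likewise an S100A9 receptor, was at 395 CPM in KO and 120 CPM in WT (1.22), and Cap1, a receptor of human resistin, at 427 CPM in KO and 138 CPM in WT (1.12). Pnpla2, the lipase that G0S2 inhibits, had 14 UMIs in KO and 70 UMIs in WT (0.06). Hemoglobin and other erythrocyte genes also moved with the library: 6 of the 6 listed were at 0 UMIs in KO sorted neutrophils and 1 of the 6 in WT sorted ones, their sum was 0 CPM in KO sorted and 8638 CPM in WT sorted neutrophils, and 74.2 CPM in KO tumor and 10948 CPM in WT tumor neutrophils, and their part in the result was not tested.

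In macrophages the 5 genes were traces in the KO sorted library and were far higher in the WT sorted library. The authors' M1 and M2 macrophages were pooled, giving 761 KO and 1577 WT sorted cells with medians of 7955 and 18239 UMIs. S100a8 had 53 UMIs in KO (6.04 CPM) and 4433 UMIs in WT (133 CPM), a log2 ratio of -4.79 (-5.21 to -4.40). S100a9 had 12 UMIs in KO (1.37 CPM) and 5232 UMIs in WT (156 CPM), a ratio of -7.17 (-8.13 to -6.37). Slpi had 252 UMIs in KO (28.7 CPM) and 13725 UMIs in WT (410 CPM), a ratio of -4.17 (-4.36 to -3.99), and was the highest of the 5 in macrophages of both genotypes. G0s2 had 59 UMIs in KO (6.72 CPM) and 921 UMIs in WT (27.5 CPM), a ratio of -2.37 (-2.77 to -1.99). Retnlg had 0 UMIs in KO and 148 UMIs in WT, a ratio of at most -4.03 against a floor of 3 counts. All 5 were thus past 2-fold lower in KO sorted macrophages, beside 10.7% of 12613 genes lower and 9.11% higher; because these differences led to the choice of the genes, the count is a description alone. S100a8 was found in 3.81% of KO and 13.2% of WT sorted macrophages, and, thinned to 2000 UMIs with 104 KO and 80 WT cells left out, in 1.37% of KO and 5.14% of WT. Erythrocyte genes moved with it here too, at a sum of 0.456 CPM in KO and 390 CPM in WT sorted macrophages. So did the macrophage markers: 4 of 10 were at least 2-fold lower in KO and 0 higher, with a median of -0.72 and a sum of 14762 CPM in KO and 25704 CPM in WT. Neither list's part in the result was tested.

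In tumor macrophages, 371 KO and 191 WT cells with medians of 2993 and 11579 UMIs, nearly all of this was missing. The cells of this name did not all carry its markers. Among M2 cells without S100 UMIs, the median was 5 of 10 macrophage genes in 165 KO cells and 1 in 78 WT cells. Among M1 cells it was 7 in 203 KO cells and 9 in 110 WT cells. Fibroblast genes summed to 292 CPM in KO and 1040 CPM in WT tumor macrophages, and their part in the ratios below was not tested. S100a8 had 4 UMIs in KO and 4 UMIs in WT, and S100a9 and Retnlg had 0 UMIs in both. Slpi had 36 UMIs in KO (17.4 CPM) and 118 UMIs in WT (53.2 CPM), of which 106 lay in 1 WT cell, and G0s2 had 19 UMIs in KO (9.21 CPM) and 33 UMIs in WT (14.9 CPM). Slpi and G0s2 were the 2 members with at least 20 UMIs, and both were past 2-fold lower in KO, beside 5.62% of 9989 genes lower and 7.75% higher. The log2 ratio was -1.94 for Slpi (-2.52 to -1.39) and -1.03 for G0s2 (-1.92 to -0.17); by CPM that of G0s2 was -0.69 (-1.59 to 0.16), short of 2-fold. Without cells of under 1000 UMIs or with 10% or more mitochondrial UMIs, Slpi had 36 UMIs in KO and 5 UMIs in WT and its ratio turned to 2.64.

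Most S100 RNA of the WT sorted macrophages sat in few cells. Cells with at least 10 UMIs of S100a8 and S100a9 together were 1 of 761 in KO and 52 of 1577 (3.30%) in WT, 27 of them named M1 and 25 named M2. The 52 WT cells held 95.5% of the S100 UMIs, 96.6% of the Retnlg UMIs and 88.1% of the G0s2 UMIs of WT sorted macrophages, but 8.42% of the Slpi UMIs. They carried both sets of markers: a median of 9 neutrophil defining genes and 9 of 10 macrophage genes per cell, with Csf3r in 47 cells, Csf1r, the receptor of the macrophage growth factor, in 50 and the complement gene C1qa in 38. Their median depth was 24081 UMIs, against 17992 UMIs in the 1525 WT cells below the limit, where the median was 1 neutrophil defining gene. Next to the limit, 28 WT cells had 3 to 9 S100 UMIs and 263 had 1 or 2. Whether a cell with both sets of markers was 1 cell or 2 cells in a droplet was not tested.

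**Figure D3:**
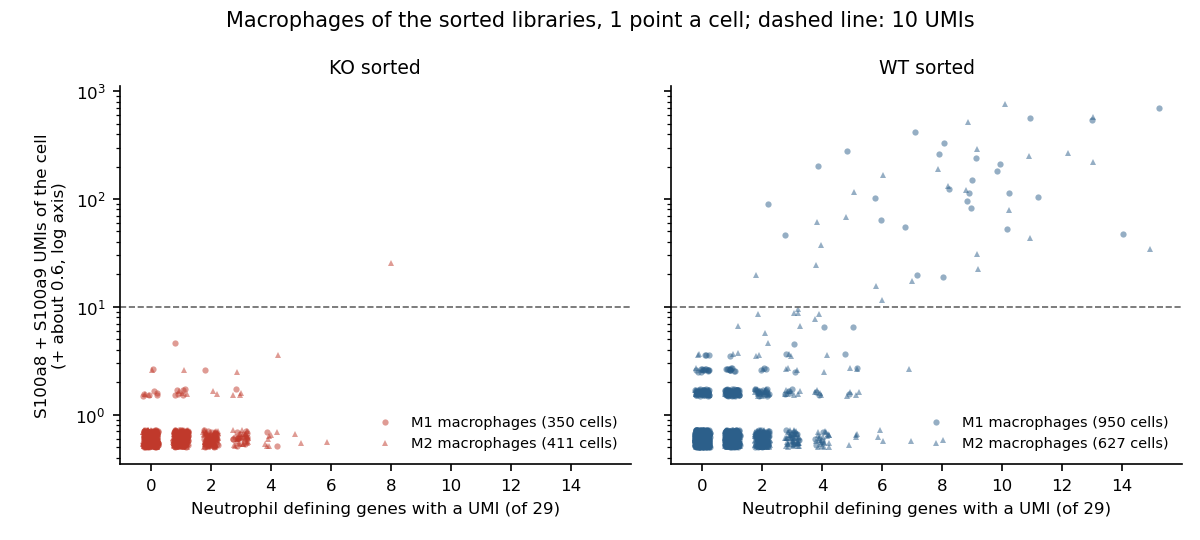
S100a8 and S100a9 UMIs of each macrophage of the sorted libraries (log axis, offset by about 0.6) against the number of neutrophil defining genes with a UMI, 1 point a cell, KO left and WT right. Above the dashed line at 10 UMIs lie 1 of 761 KO cells and 52 of 1577 WT cells, and 50 of the 52 have at least 3 neutrophil defining genes.

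The limit takes out the cells with most S100 RNA, so what it leaves of S100a8 and S100a9 is set in part by the limit itself and is given as a description. Below it S100a8 was at 4.33 CPM in KO (3.07 to 5.95) and 8.04 CPM in WT (7.09 to 9.09), and S100a9 at 0.228 CPM in KO and 5.48 CPM in WT. G0s2 was at 5.82 CPM in KO and 3.44 CPM in WT there, the opposite order to that over all macrophages. Retnlg had 0 UMIs in KO and 5 UMIs in WT. Slpi, which the limit did not use, was at 28.7 CPM in KO (25.3 to 32.5) and 393 CPM in WT (387 to 400.3). When macrophages with UMIs of at least 3 neutrophil defining genes were left out instead, the log2 ratio was -1.41 for S100a8, -5.02 for S100a9 (2 UMIs in KO) and -4.42 for Slpi, and G0s2 turned to 0.33. With doublets removed by their markers, the ratio was -1.23 for S100a8 and -4.38 for Slpi.

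Other neutrophil genes went both ways in sorted macrophages. Of the 29 defining genes in the matrix, 18 had at least 20 UMIs, 11 of the 18 were at least 2-fold lower in KO and 3 were higher, with a median log2 ratio of -1.35, beside 10.7% of all genes lower and 9.11% higher. Their summed level was 228 CPM in KO and 162 CPM in WT. Stfa2l1 and Mrgpra2b had 0 UMIs in KO and 197 and 27 UMIs in WT, and Cxcr2 had 9 UMIs in KO and 101 UMIs in WT (-1.89). The 3 higher genes were Csf3r, at 73.9 CPM in KO and 24.2 CPM in WT (1.28), Cd177, a neutrophil surface protein, at 11.2 CPM in KO and 3.41 CPM in WT (1.38), and Mmp9, at 88.3 CPM in KO and 14.7 CPM in WT (2.25). Genes of classical monocytes were higher as well, in 5 of 8 with 1 lower and a median of 1.27; Ly6c2, the monocyte surface marker, was at 203 CPM in KO and 41.9 CPM in WT (1.94), and Ccr2, the receptor by which monocytes enter tissue, at 574 CPM in KO and 159 CPM in WT (1.52). In the resistin family Retnla, a gene of alternatively activated macrophages, ran against Retnlg, with 3675 CPM in KO and 32.4 CPM in WT sorted macrophages (6.49).

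The genes were also set against S100a8 within each cell type. For each 100 S100a8 UMIs, S100a9 had 106 in KO and 135 in WT sorted neutrophils, and 118 in WT sorted M1 and 118 in WT sorted M2 macrophages. Retnlg had 11.7 in KO and 4.91 in WT sorted neutrophils, and 4.36 in WT M1 and 2.05 in WT M2 macrophages. G0s2 had 32.3 in KO and 21.1 in WT sorted neutrophils, and 24.9 in WT M1 and 15.6 in WT M2 macrophages. Slpi had 7.08 in KO and 7.37 in WT sorted neutrophils, yet 34.9 in WT M1 (32.2 to 37.7) and 658 in WT M2 macrophages (628 to 691), and 200 in KO M1 and 629 in KO M2 macrophages. In KO M2 macrophages, where S100a8 had 34 UMIs, S100a9 was at 29.4 (12.96 to 60.9) and G0s2 at 162 (104 to 256), against 106 and 32.3 in KO sorted neutrophils. All 10 S100a9 UMIs and 15 of the 34 S100a8 UMIs of these M2 cells lay in 1 cell, so their S100a9 value rests on that cell. In KO M1 macrophages, with 19 S100a8 UMIs, S100a9 was at 10.5 (1.19 to 43.6) and G0s2 at 21.1 (5.21 to 63.3).

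**Figure D4:**
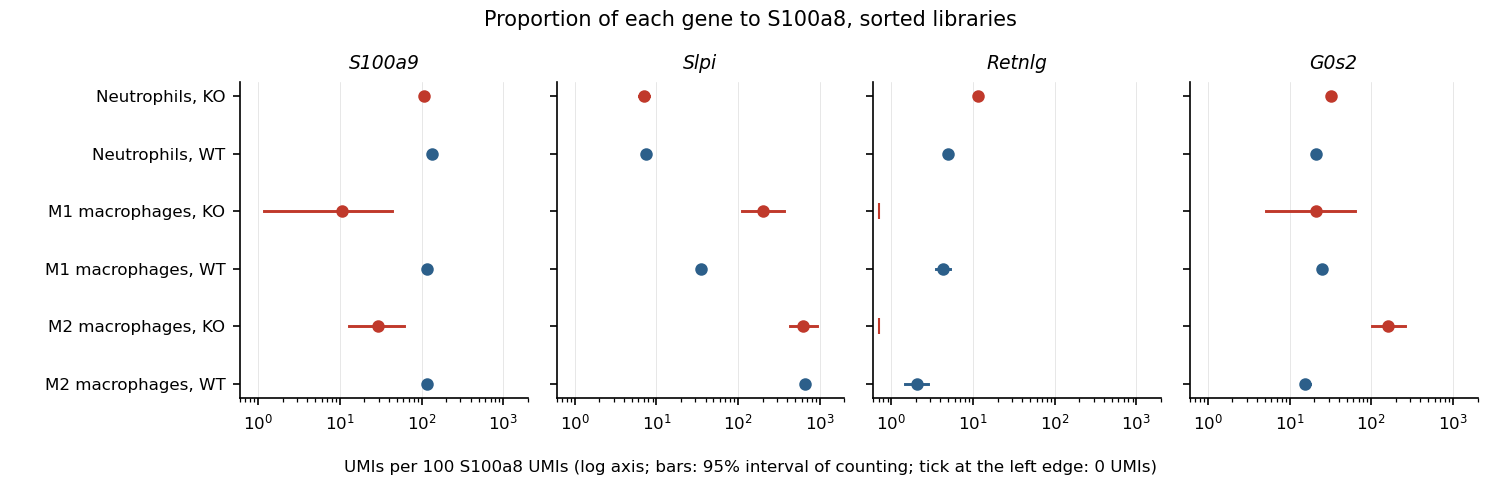
UMIs of S100a9, Slpi, Retnlg and G0s2 per 100 S100a8 UMIs (log axis) in neutrophils, M1 and M2 macrophages of the sorted libraries, KO above WT; bars are 95% intervals of counting. S100a9 in WT macrophages (118) is near that of KO neutrophils (106) and WT neutrophils (135), while Slpi in M2 macrophages is at 629 in KO and 658 in WT.

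Slpi was present in M2 macrophages as well as in neutrophils. It was at 57.6 CPM in KO and 1533 CPM in WT sorted M2 macrophages, with UMIs in 57 of 411 KO cells (13.9%) and 256 of 627 WT cells (40.8%), and at 7.50 CPM in KO and 34.5 CPM in WT sorted M1 macrophages. Thinned to 2000 UMIs, which left out 35 KO and 11 WT cells, the shares in M2 cells were 6.91% in KO and 28.7% in WT; B cells had Slpi in 0.106% of KO and 1.34% of WT cells. The log2 ratio in M2 cells was -5.11 (-5.32 to -4.92). The WT UMIs were spread over many cells: 34 cells with at least 100 UMIs held 69.1% of them and 87 cells with 10 to 99 UMIs held 27.8%. Of the 256 WT M2 cells with Slpi, 79 (30.9%) had an S100 UMI, and of the 371 without Slpi, 14.6% had one. In the KO sorted library, 0 M2 cells reached 100 Slpi UMIs and 4 reached 10. M2 macrophages held 38.0% of all Slpi UMIs of the KO sorted library and 72.4% of those of the WT sorted library, more than neutrophils did (34.6% in KO, 17.8% in WT).

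Plasmacytoid dendritic cells had Slpi, while S100 RNA lay in 1 KO sorted and 1 WT sorted cell. The KO cell had at least 10 UMIs of S100a8 and S100a9 together. Slpi was at 271 CPM in KO (218 to 332) and 801 CPM in WT (672 to 949), with UMIs in 55.9% of 34 KO cells and 47.1% of 17 WT cells, while S100a8 was found in 1 KO cell, with 9 UMIs, and in 1 WT cell, with 1 UMI. Elsewhere high Slpi came from single cells: 171 of 172 UMIs of WT sorted CD11c+ resident dendritic cells and 426 of 434 UMIs of WT sorted fibroblasts each lay in 1 cell. By level, the order for Slpi in the WT sorted library was neutrophils at 2318 CPM, M2 macrophages at 1533 CPM, plasmacytoid dendritic cells at 801 CPM and M1 macrophages at 34.5 CPM among types not led by 1 cell. In the KO sorted library it was 1054 CPM in neutrophils, 271 CPM in plasmacytoid dendritic cells, 57.6 CPM in M2 and 7.50 CPM in M1 macrophages.

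Outside neutrophils and macrophages S100a8 and S100a9 were at trace level, and the level moved with the library. Neutrophils held 97.0% of the S100a8 UMIs of the KO sorted library and 88.9% of those of the WT sorted library. The pair summed to 199 CPM over all KO sorted cells and 1800 CPM over all WT sorted cells. In cells with fewer than 10 S100 UMIs, the pair was at 0.447 CPM in KO and 16.3 CPM in WT sorted B cells, at 2.49 CPM in KO (1.52 to 3.84) and 15.6 CPM in WT (13.2 to 18.3) over all lymphocytes, at 4.15 CPM in KO and 9.88 CPM in WT M1 macrophages, and at 5.13 CPM in KO (3.09 to 8.01) and 24.5 CPM in WT (21.2 to 28.2) M2 macrophages. Cells with any S100 UMI below that limit were 3.95% of KO and 19.1% of WT sorted macrophages, 0.106% of KO and 5.04% of WT sorted B cells, and 2.34% of KO and 26.9% of WT sorted NB cells, whose median depth was 15900 UMIs in KO and 37805 UMIs in WT. In the order of S100a8 in the WT sorted library, NK cells at 131 CPM stood between M2 macrophages at 233 CPM and M1 macrophages at 98.96 CPM, and 1 NK cell held 97.5% of the S100 UMIs of its type. Below them came fibroblasts at 51.0 CPM, then NB cells at 31.3 CPM and hematopoietic stem cells at 30.3 CPM (19.6 to 44.7), which lay within counting error of each other. These levels too rested on few cells: 4 of 164 fibroblasts held 96.3% of the S100 UMIs of their type, 4 of 205 NB cells 87.6% and 1 of 445 hematopoietic stem cells 36.5%. In the KO tumor library, 1 NB cell held 94.2% of the S100 UMIs of all 1283 NB cells.

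Retnlg was found almost only in neutrophils. They held 98.5% of its UMIs in the KO sorted, 92.9% in the WT sorted, 96.5% in the KO tumor and 91.5% in the WT tumor library. In WT sorted macrophages it had UMIs in 18 M1 and 8 M2 cells, of which 17 and 7 also had S100 UMIs. It was found in 0.206% of WT sorted B cells and in 0 of 943 KO sorted B cells, which allows up to 0.318%.

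G0s2 was the one member with a large share outside leukocytes. Neutrophils held 81.4% of its UMIs in the KO sorted and 86.1% in the WT sorted library, but 8.81% in the KO tumor and 7.61% in the WT tumor library, where cells named fibroblasts held 56.2% in KO and 52.4% in WT and cells named NB cells 19.4% in KO and 37.8% in WT. In NB cells of the tumor libraries G0s2 was at 9.30 CPM in KO (8.40 to 10.3) and 33.8 CPM in WT (32.2 to 35.4), with UMIs in 17.1% of 1283 KO cells and 55.6% of 1665 WT cells. Their median depths were 31582 UMIs in KO and 27927 UMIs in WT, and thinned to 2000 UMIs, with 0 cells left out, the shares were 1.79% in KO and 6.31% in WT. The log2 ratio was -2.07 (-2.23 to -1.91), beside 8.35% of 14089 genes at least 2-fold lower and 8.94% higher. In NB cells of the sorted libraries, a type that a CD45 sort should leave out, it was -3.16 (-4.18 to -2.28), with UMIs in 4.09% of 171 KO cells and 29.8% of 205 WT cells, beside 14% of 12048 genes lower and 13% higher. The sorted cells of this name also carried leukocyte markers. Macrophage genes summed to 1962 CPM in KO and 9323 CPM in WT there, and NK cell genes to 1471 CPM in KO and 587 CPM in WT. Neuroblastoma genes, of which 4 of the 8 listed were in the matrix, summed to 197 CPM in KO and 80.4 CPM in WT. In NB cells of the tumor libraries, macrophage genes were at 99.1 CPM in KO and 199 CPM in WT. NK cell genes were at 5.61 CPM in KO and 0.159 CPM in WT there, and neuroblastoma genes at 258 CPM in KO and 162 CPM in WT. The part of these markers in the ratio was not tested.

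Cells named fibroblasts had G0s2 at 23.8 CPM in KO (22.4 to 25.2) and 48.9 CPM in WT (47.0 to 50.9) in the tumor libraries, with UMIs in 19.0% of 2493 KO cells and 47.9% of 2461 WT cells at median depths of 18136 UMIs in KO and 18299 UMIs in WT. The log2 ratio was -1.35 (-1.45 to -1.24), beside 8.46% of 14460 genes lower and 10.2% higher, and -0.72 in the sorted libraries, where 46 of 101 KO UMIs lay in 1 cell. B cells of the tumor libraries had G0s2 in 0 of 327 KO cells and 0 of 58 WT cells, which allow shares of up to 0.917% and 5.17%, at medians of 1153 and 1491 UMIs. Cells named stem cells, 218 in the KO tumor and 8 in the WT tumor library, had it at 32.2 CPM in KO (28.4 to 36.3) with UMIs in 50.9% of cells. The names NB cells, fibroblasts and stem cells are the authors', and G0s2 is no marker of any of them.

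**Figure D5:**
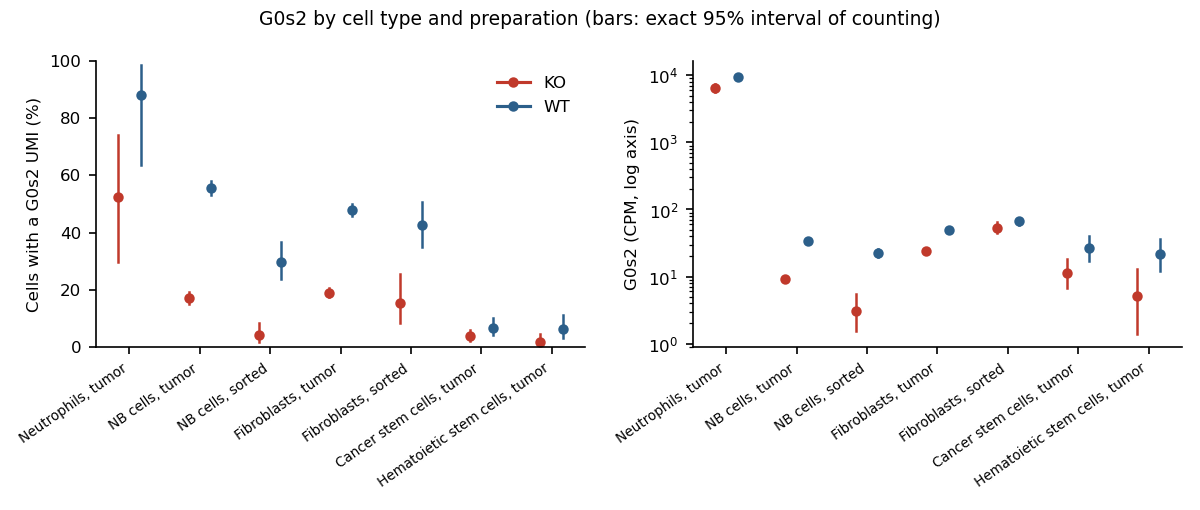
Share of cells with a G0s2 UMI (left, %) and G0s2 level (right, CPM, log axis) by cell type and preparation, KO left of WT in each pair; bars are exact 95% intervals of counting. NB cells of the tumor libraries are at 17.1% in KO and 55.6% in WT, and fibroblasts at 19.0% in KO and 47.9% in WT.

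Likeness of pattern was measured by Pearson's r of log2(CPM + 1) over the 57 combinations of cell type and library with at least 20 cells, among 14795 genes; the points share libraries and depth, and no p-value is given. S100a8 was most like S100a9 (0.97), Cstdc4 (0.94), Il1f9 (0.91), Wfdc21 (0.91) and Slfn4 (0.90). S100a9 was most like S100a8, Cstdc4 (0.94), Il1f9 (0.90), Stfa2l1 (0.89) and Wfdc21 (0.88). Slpi was less close to any gene, with Trem1 (0.84), Hp (0.84), S100a8 (0.82), Fpr2 (0.82) and Slfn4 (0.81). Retnlg was closest to Mrgpra2b (0.98), Il1f9 (0.96), Stfa2l1 (0.96), Gm20406 (0.95) and Cstdc5 (0.94), and G0s2 to Lcn2 (0.83), Il1f9 (0.81), Sgms2 (0.80), Retnlg (0.79) and Mrgpra2b (0.79). Between members the lowest value was 0.61, for Slpi and G0s2.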

How the data were processed

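The authors deposited a matrix of expression on the natural log scale (the UMIs of each gene divided by the cell's total, times 10000, plus 1, then logged), and a second table with the total UMI count and a cell type name of every cell. Per the submitters' processing notes, Seurat 4.0.5, Cell Ranger 6.0.1 and mm10 were used; their roles are not stated. How cells were filtered is not given in the sources used here; the smallest cell has 500 UMIs. Undoing these steps with the deposited totals gave whole UMIs, within 0.01, for all 60957742 nonzero values of 20376 cells.

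UMIs were summed per gene, cell type and library with python 3.11.15, numpy 2.4.6, scipy 1.17.1 and pandas 2.3.3. The calculation of ratios and their intervals was tested on counts simulated from the summed UMIs of WT sorted macrophages. Those counts had no spread between cells, and the other steps were not tested this way. Library totals were 29200338 (KO sorted), 62509573 (WT sorted), 103877007 (KO tumor) and 103277632 (WT tumor) UMIs. The 95% intervals of shares are Clopper-Pearson, those of CPM values exact Poisson, and those of ratios binomial given the summed UMIs. The share that 0 cells with a UMI allow is 3 over the number of cells, which is not a Clopper-Pearson limit. A ratio against 0 UMIs uses a floor of 3 counts over the group and is a bound. With 1 library per group there was no test and no p-value.

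The 5 genes and the marker lists were chosen with earlier results of these data known. Text names come from these lists, plus the 5 genes most like each member among genes with at least 100 UMIs. No cell was removed as a doublet in the values given. Alternatives were removal of cells that held 3 or more markers of one lineage together with 3 or more of another (doublets), stricter cell filters, other scalings, thinning (seed 1), and leaving out cells with neutrophil RNA. Of the cell barcodes, 113 occur in more than 1 library (307 cells), and leaving these cells out was another alternative. Promoter sequences are those of RefSeq on GRCm38.p6, where 5 of the 5 genes matched by symbol.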

Additional observations from a re-analysis of the deposited data

Results flagged for a closer look

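In 3 cases the ratio of KO over WT went one way in the sorted libraries and the other way in the tumor libraries. With 1 library per group the differences between preparations were not tested. For S100a8 in cells named NB cells the log2 ratio was -5.08 in the sorted libraries (4 UMIs in KO, 252 UMIs in WT) and 3.56 in the tumor libraries (90 UMIs in KO, 8 UMIs in WT). For S100a9 in cells of the same name it was at most -5.48 in the sorted libraries (0 UMIs in KO, 248 UMIs in WT) and 3.68 in the tumor libraries (98 UMIs in KO, 8 UMIs in WT). The sorted cells of that name also carried macrophage and NK cell genes, as given above. A single KO tumor cell held 94.2% of these S100 UMIs, and 4 WT sorted cells had at least 10 of them each. For Retnlg in neutrophils the ratio was -0.34 (sorted libraries) and 0.82 (tumor libraries). By CPM it was higher in KO in both preparations. It was at 1735 CPM in KO and 1544 CPM in WT sorted neutrophils, and at 3044 CPM in KO and 1180 CPM in WT tumor ones. The opposite directions for Retnlg thus depend on the scaling. In the tumor libraries KO had 82 UMIs in 9 of 21 cells and WT had 43 UMIs in 9 of 17 cells. A single KO cell held 38 of the 82 UMIs, and a single WT cell held 24 of the 43.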

How the results depend on the processing

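Of 178 values of 19 results under alternatives, 94 were held the same, 72 moved and 12 changed sign, and the cause was not tested. For a ratio, the same meant inside its counting interval, and moved meant outside it with the same sign. The Retnlg ratio in sorted macrophages is a bound, so its 7 values were held the same by sign alone. The count of neutrophil defining genes was held the same within a set fold of its main value, which 10 of its 14 values met. The S100a8 log2 ratio KO over WT in sorted neutrophils, -1.58, was -1.08 scaled by total UMIs, -1.13 also without ribosomal protein, mitochondrial and hemoglobin genes, -1.33 with equal weight per cell, -1.43 thinned to 2000 UMIs, -0.996 without cells with a basophil or mast cell UMI and -1.29 in cells with at least 3 neutrophil defining genes. In sorted macrophages, -4.79, it was -1.23 with doublets removed, -4.04 with equal weight per cell, -4.17 thinned and -1.41 without cells with at least 3 neutrophil defining genes. The count of neutrophil defining genes lower in KO sorted macrophages, 11, was 4 thinned and 7 at 3-fold. It was 3 with doublets removed and 3 without cells with at least 3 neutrophil defining genes. Both of these filters left cells out by the genes that were then counted, so these 2 counts were set in part by the filter. Removal of doublets took out 144 of 761 KO and 359 of 1577 WT sorted macrophages. Signs changed for Retnlg in sorted neutrophils (0.17 by total UMIs, 0.11 without the named genes, 0.25 without basophil or mast cell UMIs) and in tumor neutrophils (-0.47 thinned), and for G0s2 in sorted macrophages (0.81 with doublets removed, 0.33 without cells with neutrophil genes). In tumor macrophages they changed for S100a8 (0.10 by total UMIs, 1.497 with equal weight per cell), Slpi (1.23 with doublets removed, 2.64 with stricter cell filters, 0.93 without cells with neutrophil genes) and G0s2 (at least 0.37 thinned). No paired analysis was possible because cells carry no sample name, so each group is 1 library, and no replicate could be left out. Depth limits S100a8, S100a9 and Retnlg in tumor macrophages, with 0 to 4 UMIs.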

Other observations

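Of 8 listed transcription factors of granulocytes, 6 had at least 20 UMIs in sorted neutrophils, 1 was at least 2-fold lower in KO and 1 higher, with a median log2 ratio of 0.11, near the shares over all genes (19.0% lower, 17.9% higher). Cebpb, a C/EBP factor of mature granulocytes, was at 6205 CPM in KO and 6358 CPM in WT (-0.54), and Spi1, which encodes PU.1, at 400.0 CPM in KO and 273 CPM in WT (0.04). Cebpa, the factor of early granulocyte commitment, had 15 UMIs in KO and 17 UMIs in WT (2.20). In sorted macrophages, where 10.7% of all genes were lower and 9.11% higher, 0 of the 8 were lower and 2 higher: Klf4, a factor of monocytes, was at 519 CPM in KO and 152 CPM in WT (1.44), and Gfi1, a repressor of granulocyte precursors, had 27 UMIs in KO and 11 UMIs in WT (2.89). Platelet genes summed to 1010 CPM in KO and 3008 CPM in WT sorted macrophages. Of the 6 listed, 2 had at least 20 UMIs there and both were at least 2-fold lower in KO, so the sum rests on few genes. Whether it stands for platelet RNA was not tested.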
